A study of Mus musculus with 2 samples.

Results

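Interferon-stimulated genes are the genes that cells switch on when interferon binds its receptors. Here 38 of them were followed through cells of the mouse fracture callus, in which cartilage bridges a broken bone and is then replaced by bone. They were chosen by name, and 36 of the 38 had a row among the 32285 genes of both matrices, whereas Mx1 and Mx2 are not analysed here. The data were 2 single-cell RNA-seq libraries, MGJ and MGJ2, made with the 10x Genomics Chromium 3′ chemistry from dissociated calluses of wild-type mice with a femoral fracture. Per the design text, 5 mice were taken 10 days and 5 mice 20 days after fracture, but the labels of both libraries were alike and gave neither a day, and the cells of different mice cannot be told apart. Neither library therefore has a group, no test was possible, and values of MGJ and MGJ2 stand side by side without a comparison. All intervals are 95% intervals and cover counting error only, and the 12947 cells of MGJ and 7568 cells of MGJ2 are not replicates.

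Type I interferons signal through a receptor made of Ifnar1 and Ifnar2 to a complex that holds Stat2 and Irf9 and binds the interferon-stimulated response element. Interferon gamma, made mainly by natural killer and T cells, signals through Ifngr1 and Ifngr2, and its target genes often carry the gamma-activated site. The induced proteins sense foreign RNA and DNA, block viral replication, attack the vacuoles of intracellular pathogens and attract T cells, and in bone interferons are also known to restrain osteoclast formation.

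Promoters of the listed genes were read from RefSeq (GRCm38.p6) in windows of 300 bases, from 250 before to 50 after the transcription start, and 30 of the 38 genes had a window. The response element was searched as GAAANNGAAA and the gamma-activated site as TTCNNNGAA, on both strands. The response element lay in a window of 19 of the 30 genes (63.3%), and in 1079 of the 27025 genes of the promoter table (3.99%). The gamma-activated site lay in a window of 7 of the 30 genes (23.3%), compared with 9.55% of all genes. By role, all 4 RNA and DNA sensors with a window, all 6 interferon-inducible GTPases and 6 of the 10 antiviral effectors held the response element. Of the 4 transcription factors, Stat2 held the response element and Irf1 the gamma-activated site. Overlapping matches were each counted, as in the window of Bst2, where a gamma-activated site and 2 response elements lie within a few bases of each other. A match describes the letters and is not a measured binding site.

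The 250 bases before the start are shown for the genes on which the results below turn, with every match in capitals. Isg15 held 3 overlapping response elements beginning 78 bases before the start, Ifit1 and Ifit3 held 2 each, Rsad2 and Cxcl10 held 1 each, Irf1 held a gamma-activated site alone and Gbp7 held both motifs.
Isg15, chr4:156200819-156201068, strand minus: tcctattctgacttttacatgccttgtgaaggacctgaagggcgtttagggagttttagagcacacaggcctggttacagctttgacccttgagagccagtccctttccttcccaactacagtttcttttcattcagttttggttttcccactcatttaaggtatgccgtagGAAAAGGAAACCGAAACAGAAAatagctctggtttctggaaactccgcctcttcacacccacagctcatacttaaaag
Ifit1, chr19:34640639-34640888, strand plus: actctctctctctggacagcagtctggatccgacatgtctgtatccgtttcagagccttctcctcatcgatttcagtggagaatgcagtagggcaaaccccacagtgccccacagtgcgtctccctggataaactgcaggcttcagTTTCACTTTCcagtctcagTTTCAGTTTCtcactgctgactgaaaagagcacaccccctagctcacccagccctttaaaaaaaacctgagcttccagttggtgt
Ifit3, chr19:34583279-34583528, strand plus: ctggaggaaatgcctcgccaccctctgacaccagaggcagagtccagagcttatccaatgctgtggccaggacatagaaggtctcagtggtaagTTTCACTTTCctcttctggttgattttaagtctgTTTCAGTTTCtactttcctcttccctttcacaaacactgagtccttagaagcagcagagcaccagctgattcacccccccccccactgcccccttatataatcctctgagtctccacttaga
Rsad2, chr12:26456453-26456702, strand minus: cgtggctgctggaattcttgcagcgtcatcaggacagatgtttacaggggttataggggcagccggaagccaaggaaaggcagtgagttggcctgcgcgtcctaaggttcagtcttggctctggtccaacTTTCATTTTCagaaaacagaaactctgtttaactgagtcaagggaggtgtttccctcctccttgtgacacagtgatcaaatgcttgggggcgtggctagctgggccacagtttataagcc
Cxcl10, chr5:92348890-92349139, strand minus: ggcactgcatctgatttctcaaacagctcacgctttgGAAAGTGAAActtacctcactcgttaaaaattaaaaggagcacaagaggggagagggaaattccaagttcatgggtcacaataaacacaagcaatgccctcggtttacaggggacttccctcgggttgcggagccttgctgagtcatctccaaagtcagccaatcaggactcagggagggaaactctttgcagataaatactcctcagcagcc
Irf1, chr11:53769764-53770013, strand plus: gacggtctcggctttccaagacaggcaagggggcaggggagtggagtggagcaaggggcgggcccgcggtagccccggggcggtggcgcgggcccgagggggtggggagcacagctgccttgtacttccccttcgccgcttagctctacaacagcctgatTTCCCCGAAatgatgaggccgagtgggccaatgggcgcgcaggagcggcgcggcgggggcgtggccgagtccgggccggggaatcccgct
Gbp7, chr3:142530086-142530335, strand plus: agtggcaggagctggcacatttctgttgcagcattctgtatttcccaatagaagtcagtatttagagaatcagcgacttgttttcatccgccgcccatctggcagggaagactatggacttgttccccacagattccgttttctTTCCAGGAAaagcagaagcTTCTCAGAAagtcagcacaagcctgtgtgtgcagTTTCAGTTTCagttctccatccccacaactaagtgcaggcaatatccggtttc

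Levels are given in CPM, the counts-per-million scale, as UMIs of a gene over UMIs of all genes in the same cells (UMI, unique molecular identifier, 1 count per captured RNA molecule). Since the 3′ chemistry counts molecules and not fragments, these levels carry no gene length. Cells were clustered without the interferon-stimulated genes measured here and without the pathway genes listed for context. Other interferon-induced genes stayed in, such as Ifitm1, a leading gene of a neutrophil-like cluster. A cluster was called by a cell type with "-like" when it held that type's markers. A class of at least 50 cells in a library was described: 18 in MGJ and 15 in MGJ2, of which 13 were found in both. The median depth was 5026 UMIs per barcode in MGJ and 4952 UMIs in MGJ2. Clusters without a name held 22.8% of the kept cells of MGJ and 1.89% of those of MGJ2, and 13 kept barcodes occurred in both libraries.

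The 36 genes together took 683 CPM over all kept cells of MGJ and 1214 CPM over those of MGJ2. Among the classes of at least 50 cells they were highest in erythroid-like cells of MGJ, at 4275 CPM (interval 4037 to 4524), and in plasmacytoid dendritic-like cells of MGJ2, at 3515 CPM (interval 3353 to 3683). Monocyte-like cells followed at 2736 CPM in MGJ and 2698 in MGJ2, and endothelial-like cells at 2739 and 2364. Chondrocyte-like cells were lowest in both libraries, at 169 CPM in MGJ (interval 165 to 172) and 151 in MGJ2 (interval 139 to 164). Immature neutrophil-like cells stood just above them at 200 and 178 CPM. Some classes too small to describe stood above these tops. They were plasmacytoid dendritic-like cells of MGJ at 5403 CPM (21 cells) and pericyte or smooth muscle-like cells of MGJ2 at 4126 CPM (9 cells). The remaining small classes of MGJ2 were macrophage-like cells at 2798 (28 cells), erythroid-like at 861 (4 cells) and tenocyte-like at 311 CPM (9 cells). In MGJ mast or basophil-like cells stood at 373 CPM (6 cells).

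**Figure D1:**
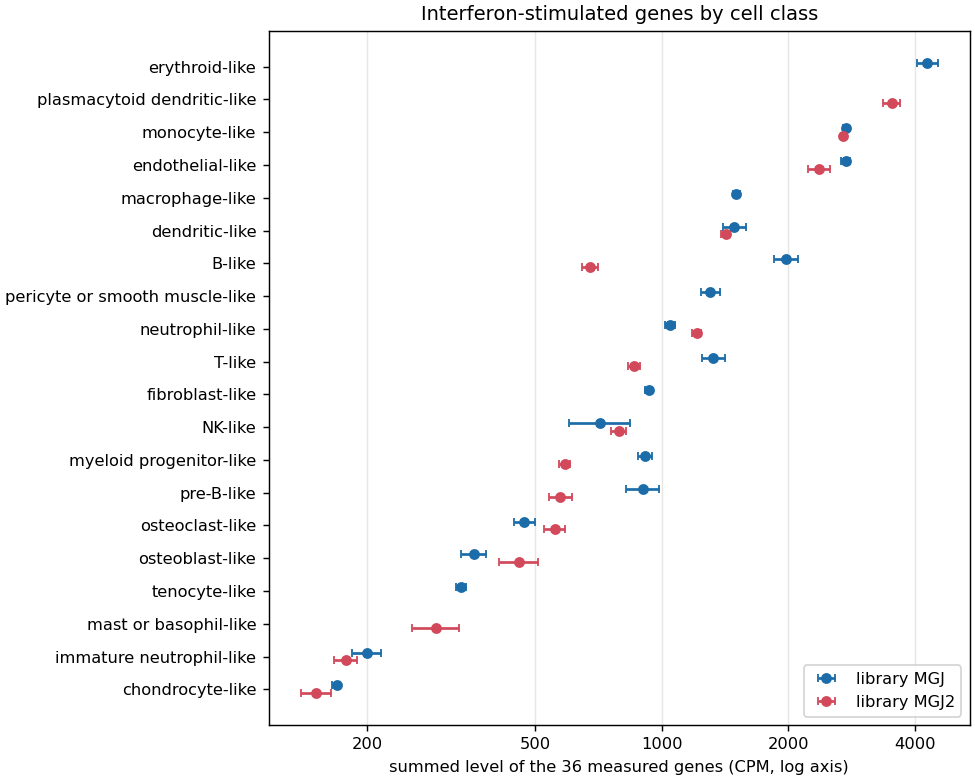
Summed level of the 36 measured interferon-stimulated genes in each cell class, in CPM on a log axis, with points for each library and bars for the exact Poisson 95% interval. Levels run from 169 in chondrocyte-like to 4275 in erythroid-like cells of MGJ and from 151 in chondrocyte-like to 3515 in plasmacytoid dendritic-like cells of MGJ2.

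Between these ends the order of MGJ was B-like cells at 1976, macrophage-like at 1505, dendritic-like at 1489, T-like at 1326, pericyte or smooth muscle-like at 1305, neutrophil-like at 1048, fibroblast-like at 932, myeloid progenitor-like at 913, pre-B-like at 903, NK-like at 714, osteoclast-like at 472, osteoblast-like at 358 and tenocyte-like at 333 CPM. The interval of the ratio held 1 for 6 neighbouring pairs of that order, namely endothelial-like and monocyte-like, macrophage-like and dendritic-like, T-like and pericyte-like, fibroblast-like and myeloid progenitor-like, myeloid progenitor-like and pre-B-like, and osteoblast-like and tenocyte-like cells. In MGJ2 the order ran from dendritic-like cells at 1419 through neutrophil-like at 1212, T-like at 858, NK-like at 791, B-like at 677, myeloid progenitor-like at 588, pre-B-like at 575, osteoclast-like at 557 and osteoblast-like at 458 to mast or basophil-like cells at 291 CPM. There the interval held 1 for myeloid progenitor-like against pre-B-like and for pre-B-like against osteoclast-like cells. Over the 13 classes found in both libraries, the log2 summed levels of MGJ and MGJ2 had a Pearson correlation of 0.919, a description across classes that share their libraries and their depth.

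Which genes made up these sums differed between classes. Ifi27l2a, a small mitochondrial protein of uncertain role, made up 42.3% of the summed UMIs of monocyte-like cells in MGJ and 44.7% in MGJ2. Bst2, or tetherin, which holds budding virions at the cell surface, made up 68.5% in plasmacytoid dendritic-like cells of MGJ2. Rsad2, or viperin, an enzyme that makes a chain-terminating nucleotide, made up 58.7% in erythroid-like cells of MGJ. In endothelial-like cells of MGJ no gene passed Bst2 at 18.8%. Interferon-inducible GTPases took their largest share in NK-like cells, at 33.1% in MGJ and 28.3% in MGJ2, and the chemokines Cxcl9 and Cxcl10 took 34.7% in chondrocyte-like cells of MGJ and 19.0% in myeloid progenitor-like cells of MGJ2.

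**Figure D2:**
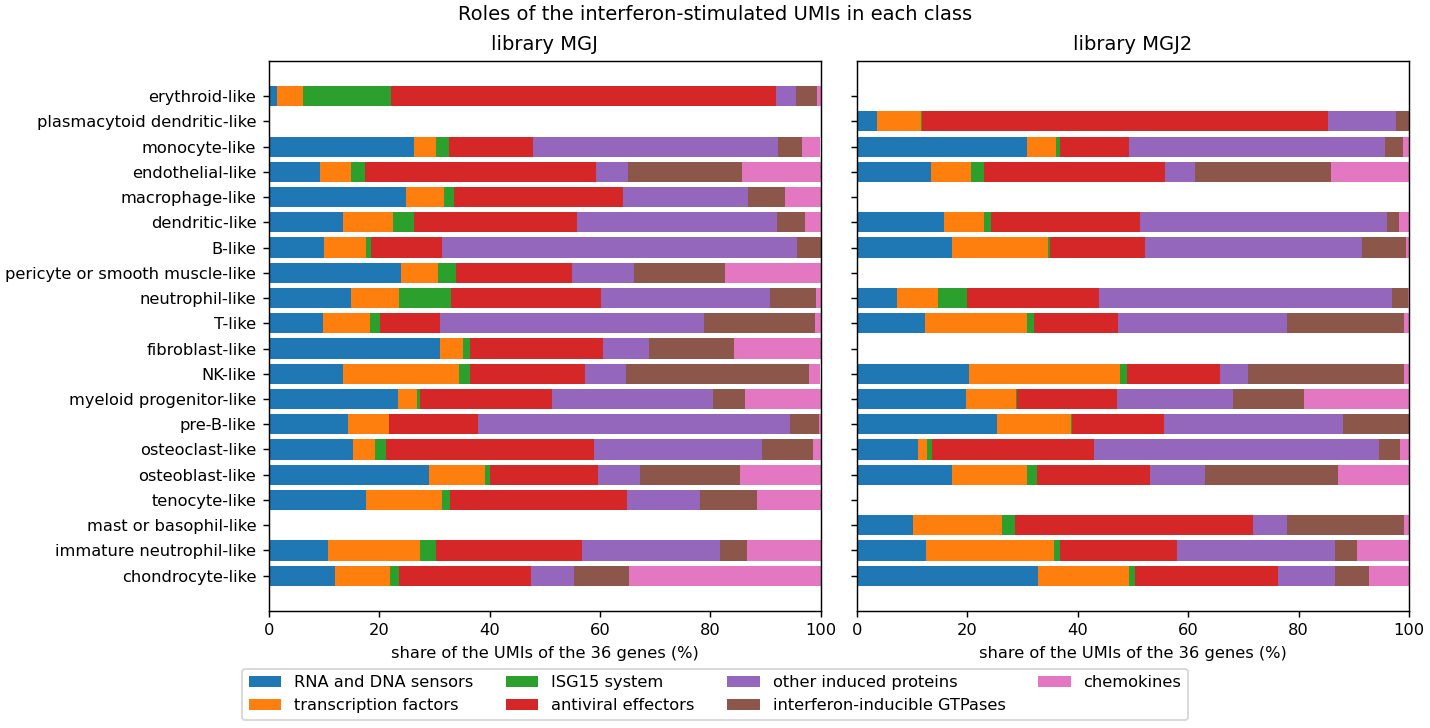
Share of the UMIs of the 36 genes, in percent, that fell to each role in each class, for each library, with classes of under 50 cells left empty. Antiviral effectors filled 69.7% of the bar of erythroid-like cells in MGJ and 73.6% of that of plasmacytoid dendritic-like cells in MGJ2.

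Taken gene by gene over the 13 shared classes, 19 of the 36 genes had their highest level in endothelial-like cells in MGJ and 13 in MGJ2. Monocyte-like cells were highest for 5 and 8 genes, neutrophil-like cells for 3 and 5, and NK-like cells for 3 and 5. The class with the highest level was the same in both libraries for 22 of the 36 genes. The share of all genes that were highest in each class was not worked out, so these counts have no background to be read against. Some rest on few UMIs, such as Usp18 with 4 and Cmpk2 with 6 in endothelial-like cells of MGJ2. All 36 genes had at least 20 UMIs in each library, from 183 UMIs of Oas2 to 15511 of Ifi27l2a in MGJ and from 52 UMIs of Ifi44 to 26127 of Ifi27l2a in MGJ2. Families of similar sequence sit together in the genome: Ifit1, Ifit2 and Ifit3 on chromosome 19, the 4 Gbp genes on chromosome 3, Oas2, Oas3, Oasl1 and Oasl2 on chromosome 5 and Ifi203, Ifi204 and Ifi207 on chromosome 1 (GENCODE release M21). Reads that fit several of these copies may have been left out or split, so levels within a family are less certain.

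**Figure D3:**
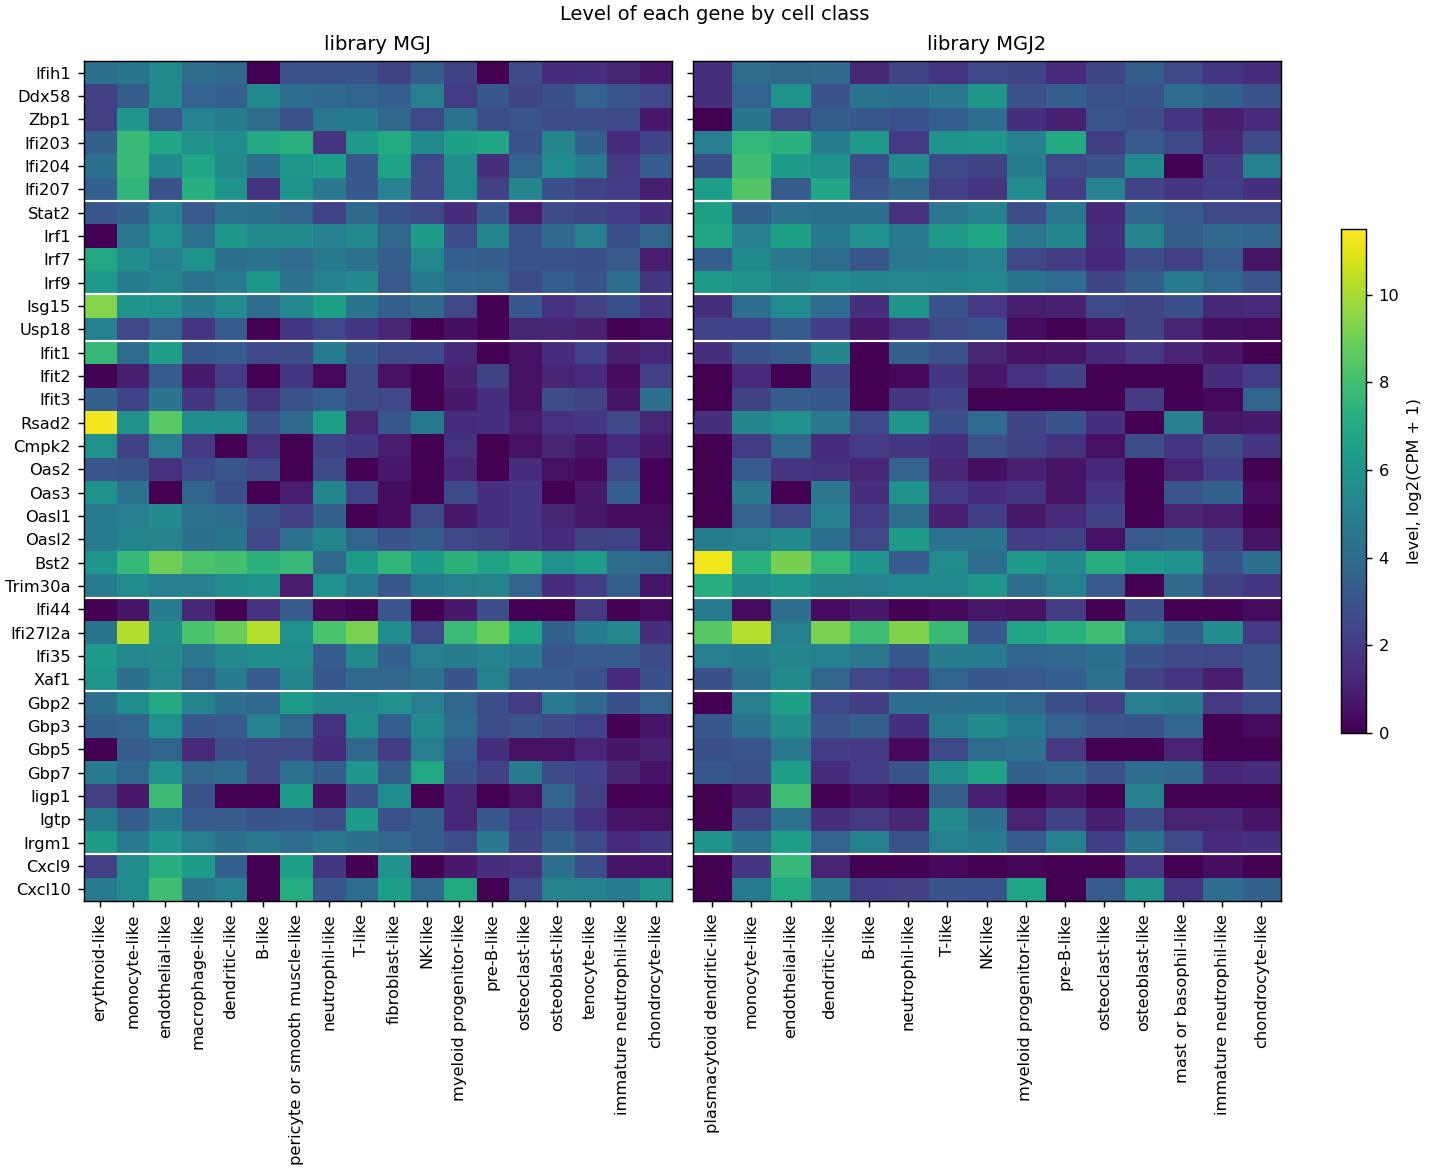
Level of each of the 36 genes in each class, as log2 of CPM plus 1, with genes grouped by role between white lines and classes sorted as in the plot of summed levels. Ifi27l2a is bright in monocyte-like cells at 1158 CPM in MGJ and 1206 in MGJ2, whereas the chondrocyte-like column at the right of each panel is dark apart from Cxcl10, Ifit3 and a few others.

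The sensors were led by monocyte-like cells. Ifi204, a DNA sensor of the PYHIN family, stood at 220 CPM in monocyte-like cells of MGJ (interval 207 to 233) and 251 in those of MGJ2 (interval 243 to 260). Its relatives Ifi203 and Ifi207 stood at 217 and 187 in MGJ and at 195 and 332 in MGJ2. Each of the 3 was at least 5-fold higher in monocyte-like cells than in all other cells of the same library, with Ifi207 7.78-fold higher in MGJ and 10.9-fold higher in MGJ2. Zbp1, which senses left-handed nucleic acids and can start necroptosis, was also highest there among the shared classes, at 62.6 and 21.5 CPM. The RNA helicase Ifih1 was highest in endothelial-like cells of MGJ at 42.8 and in monocyte-like cells of MGJ2 at 16.3 CPM. Without the 5 richest cells the endothelial-like level was 23.2. Ddx58, the helicase RIG-I, was highest in endothelial-like cells of MGJ at 42.8 and in NK-like cells of MGJ2 at 67.9 CPM. Outside the hematopoietic and endothelial classes, Ifi203 stood at 155 CPM in pericyte or smooth muscle-like and 130 in fibroblast-like cells of MGJ, and the latter held 99.4 of Ifi204.

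Of the transcription factors, Irf1, an early target of interferon gamma, was highest in NK-like cells of both libraries, at 82.0 CPM in MGJ (17 UMIs) and 112 in MGJ2 (324 UMIs). Irf7, the factor that amplifies type I interferon production, stood at 117 CPM in erythroid-like, 58.1 in macrophage-like and 43.4 in monocyte-like cells, the first and second in MGJ and the last in MGJ2. Stat2 was highest in plasmacytoid dendritic-like cells of MGJ2 at 91.2 CPM (interval 66.8 to 122) and in endothelial-like cells of MGJ at 32.8. Irf9 was highest in plasmacytoid dendritic-like cells of MGJ2 at 75.3 and in erythroid-like and B-like cells of MGJ at 74.6 and 69.2 CPM.

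Monocyte-like cells had 25 of the 36 genes at least 2-fold above all other cells in MGJ (69.4%, with 9.59% of all 16406 genes of at least 20 UMIs past that fold) and 12 in MGJ2 (33.3%, with 6.94% of 14707 genes). The summed level was 4.62 times that of all other cells in MGJ (interval 4.54 to 4.71) and 3.52 times in MGJ2 (interval 3.46 to 3.57). With every cell weighted equally the MGJ ratio was 2.86, and that of endothelial-like cells, 4.26, was 2.62. All other cells are a different mix in each library, with chondrocyte-like cells holding 40.9% of all UMIs in MGJ and 6.71% in MGJ2. Ratios to all other cells and counts past 2-fold depend on that mix, for every class. In monocyte-like cells Ifi27l2a had the highest level, at 1158 and 1206 CPM, and Bst2 came in at 202 and 163. In MGJ the steepest ratio was that of Ifi27l2a at 15, and in MGJ2 that of Ifi207. The genes furthest below all other cells were the GTPase Iigp1, at 0.747 CPM in MGJ and 0.598 in MGJ2, Ifi44 at 0.560 and 0.299, Ifit3 at 3.92 in MGJ (ratio 0.354) and Gbp7 at 6.13 in MGJ2 (ratio 0.348). Different clusters held most monocyte-like cells of each library, 1 led by Ms4a4c and Tarm1 with 837 cells of MGJ and 1 led by Cd83 and Adgre4 with 1413 cells of MGJ2. Their summed levels were 2682 and 2720 CPM.

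Endothelial-like cells carried the broadest set. In MGJ 29 of the 36 genes were at least 2-fold above all other cells (80.6%, with 21.3% of all genes), and in MGJ2 22 genes were (61.1%, with 24.1%). Bst2 stood at 514 CPM in MGJ (interval 486 to 544) and 572 in MGJ2 (interval 503 to 648). Iigp1, a GTPase that attacks pathogen vacuoles, stood at 233 and 240, which was 40.1 and 119 times the level elsewhere in the library. Cxcl10 and Cxcl9, chemokines that attract T cells through Cxcr3, stood at 249 and 144 in MGJ and at 132 and 201 in MGJ2. Ifi44 was 19.7 and 20.6 times the level elsewhere in the library, on 65 and 7 UMIs. Cmpk2, a mitochondrial nucleotide kinase next to Rsad2 on chromosome 12, stood at 29.1 CPM in MGJ, or 13.8 without the 5 richest cells, and 13.9 in MGJ2 (6 UMIs). Other genes ran the other way. Ifi27l2a was at 0.402 and 0.0659 times the level elsewhere in the library, Ifi207 at 0.211 and 0.0915 times, and Oas3 had no UMI in either library.

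A few cells weighed heavily on these endothelial-like levels. The 5 of 253 cells richest in these genes held 27.1% of the summed UMIs in MGJ, and the 5 of 50 richest held 50.9% in MGJ2. Without them the sum was 2140 and 1501 CPM, and its ratio to all other cells went from 4.26 to 3.33 in MGJ and from 1.96 to 1.25 in MGJ2. Rsad2 stood at 379 CPM in MGJ, but 76.4% of its 912 UMIs lay in 5 cells, 344 of them in the same cell, and without the 5 cells richest in the 36 genes its level was 119. Without the 5 richest cells Bst2 was at 505 and 421, Iigp1 at 219 and 95.5, and Cxcl9 at 98.5 and 38.8 CPM in MGJ and MGJ2. Endothelial markers took 3100 CPM in the 5 richest cells of MGJ and 4378 in the rest, and monocyte and neutrophil markers were no higher in the 5 richest cells of either library than in the rest.

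Pericyte or smooth muscle-like and fibroblast-like cells of MGJ, the neighbouring stromal classes, shared the GTPase and the chemokines. Iigp1 stood at 77.7 CPM in pericyte-like and 47.2 in fibroblast-like cells. Cxcl9 stood at 90.0 and 59.9, and Cxcl10 at 137 and 86.7. Without the 5 richest cells of each class, Iigp1 was at 46.0 and 34.9, Cxcl9 at 55.2 and 37.9 and Cxcl10 at 61.6 and 73.0. In T-like cells of MGJ, by contrast, Cxcl9 had no UMI, for which the interval reaches 4.89 CPM. Osteoblast-like cells held 34.1 CPM of Cxcl10 in MGJ and 56.5 in MGJ2, with Iigp1 at 11.7 and 31.7. Of the osteoblast-like UMIs of the 36 genes, 37.3% in MGJ and 50.9% in MGJ2 lay in 5 cells, and without them Cxcl10 was at 6.79 and 4.64 and Iigp1 at 0.905 and 9.27 CPM.

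In erythroid-like cells of MGJ, 71 cells in which erythroid markers took 469407 CPM, the sum rested on 2 genes. Rsad2 stood at 2509 CPM (interval 2327 to 2701), and Isg15, the ubiquitin-like modifier, at 654 (interval 563 to 756). Rsad2 was detected in 71 of 71 cells, whose median depth was 2574 UMIs of all genes. After thinning every cell to 2000 UMIs it was detected in 93.9% of the cells deep enough. In osteoclast-like cells, the class of MGJ with the lowest Rsad2 level, thinned alike, it was detected in 0.213%. Among other thinned classes of MGJ, Rsad2 was detected in 24.2 of 191 endothelial-like and 58.1 of 1055 neutrophil-like cells, as means of the draws. Ifit1, which binds RNA without a proper cap, stood at 199, Irf7 at 117 and Irgm1 at 78.2 CPM. Cmpk2, at 56.9 CPM, was 28.2 times the level elsewhere in the library. In all, 17 of the 36 genes were at least 2-fold above all other cells (47.2%, with 9.95% of all genes), while Irf1, Ifit2, Ifi44 and Gbp5 were among those with no UMI. The 5 richest cells held 30.8% of the summed UMIs, and without them the sum was 3267, Rsad2 2036, Isg15 459 and Ifit1 43.1 CPM. Neutrophil markers took 9602 CPM in these 5 cells and 2110 in the other erythroid-like cells, and their part in the result was not tested. MGJ2 had too few erythroid-like cells to describe. Its 4 cells had a sum of 861 CPM on 67 UMIs, or 0.709 times that of all other cells (interval 0.549 to 0.900), unlike the high level in MGJ.

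Plasmacytoid dendritic-like cells, known as the professional producers of type I interferon, were described in MGJ2 with 53 cells. Bst2, which is also a surface marker of these cells in the mouse, stood at 2409 CPM (interval 2275 to 2548) and was detected in 53 of 53 cells. After thinning it was found in 97.9% of them and in 2.62% of NK-like cells, but in 333 of 1432 monocyte-like cells as a mean of the draws. Endothelial-like cells had the second highest Bst2 level of MGJ2, at 572 CPM. Trim30a, a ubiquitin ligase that dampens inflammatory signalling, followed at 147, Irf1 at 107 and Stat2 at 91.2, behind Ifi27l2a at 369 CPM. Ifi44, at 25.8 CPM on 13 UMIs, was 37.9 times the level elsewhere in the library. No UMI of Igtp, Cxcl9 or Cxcl10 was found, and the interval of each reaches 7.31 CPM.

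GTPases were the role with the largest share in NK-like cells, whereas Ifi27l2a was the leading gene of B-like, pre-B-like and T-like cells in both libraries. Gbp7 was highest in NK-like cells, at 116 CPM in MGJ (interval 74.2 to 172) and 99.3 in MGJ2 (interval 88.2 to 111), or 16.0 and 9.47 times the level elsewhere in the library. Igtp, of the immunity-related GTPases, was highest in T-like cells, at 75.5 and 44.7 CPM, or 19.2 and 13 times. Gbp3 was highest in endothelial-like cells, at 54.4 and 50.8, and stood next at 51.7 in T-like cells of MGJ and 44.5 in NK-like cells of MGJ2. Gbp5, which promotes inflammasome assembly, was highest at 28.9 in NK-like cells of MGJ (6 UMIs) and 23.1 in endothelial-like cells of MGJ2. These promoters held both motifs for Gbp7, Gbp5 and Igtp and the response element alone for Gbp3. Gbp2 and Irgm1, an immunity-related GTPase that regulates the others, were also highest in endothelial-like cells among the shared classes, with Gbp2 at 120 and 87.7 and Irgm1 at 65.3 and 83.1 CPM. Without the 5 richest endothelial-like cells of MGJ2, Gbp2 was at 41.8 and Gbp3 at 14.9, the latter below its NK-like level.

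Within T-like cells the levels differed by cluster. The cluster led by Icos, Cxcr6 and Cd3g, with Pdcd1 among its leading genes, had a summed level of 1420 CPM in MGJ (interval 1330 to 1516) and 1179 in MGJ2 (interval 1130 to 1228). The T-like cluster led by Tdrp and Gimap3 had 626 in MGJ2 (interval 596 to 657). In the first of these, Igtp stood at 87.4 CPM in MGJ and 74.6 in MGJ2. B-like cells had Ifi27l2a at 1210 CPM in MGJ, 61.2% of their sum, and at 239 in MGJ2. They came in unlike shares from a cluster led by Igkc and Ms4a1, with 89 cells of MGJ and 580 of MGJ2, and from another led by Rag1. The latter, with the pre-B marker Vpreb3 among its leading genes too, had 124 and 175 cells. Its part in these levels was not tested.

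Neutrophil-like cells carried the ISG15 and oligoadenylate synthetase genes, whose products tag proteins and activate RNA decay. In MGJ 13 genes were at least 2-fold above all other cells (36.1%, with 9.05% of all genes). In MGJ2 the 6 were Isg15, Rsad2, Oas2, Oas3, Oasl1 and Oasl2 (16.7%, with 9.04%). Isg15 stood at 92.8 CPM in MGJ (interval 84.8 to 101) and 60.8 in MGJ2 (interval 54.2 to 67.9), or 6.0 and 7.11 times the level elsewhere in the library. Oas3 stood at 37.6 and 59.2, Oasl2 at 36.3 and 76.5 and Rsad2 at 87.5 and 63.5 CPM. Oas2, the scarcest of the family, reached 11.1 in MGJ2. Oasl1, which lacks synthetase activity and represses translation of Irf7, was highest in endothelial-like cells of MGJ at 41.1 and in dendritic-like cells of MGJ2 at 30.2 CPM. Without the 5 richest cells these were 16.0 and 17.9, and monocyte-like cells of MGJ, at 23.1 likewise, then stood above the endothelial-like cells. In neutrophil-like cells 8 genes were at least 2-fold below all other cells in MGJ (22.2%, with 71.6% of all genes). In MGJ2 16 genes were (44.4%, with 69.4%), more than were above. Far below all other cells were Iigp1 with 2 UMIs in MGJ and none in MGJ2, and Ifi203 at 0.0651 times in MGJ. The sum itself was 1.57 times that of all other cells in MGJ (interval 1.53 to 1.61), and in MGJ2 the ratio was 0.998 with an interval of 0.972 to 1.02. The MGJ ratio was 2.59 when interferon genes were kept for clustering.

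Neutrophils make their granule proteins in stages, Camp, Ltf and Fcnb in immature cells and Mmp8, Retnlg and Cxcr2 later, and clusters led by those genes differed in level. The cluster led by Camp and Orm1 had a sum of 190 CPM in MGJ and 120 in MGJ2, and the cluster led by Ltf had 209 and 249. The cluster led by Retnlg, Mmp8 and Cxcr2 had 628 and 694. The largest neutrophil-like clusters were not led by any of these genes and are not placed among the stages. They were 1 led by Cstdc4 and Stfa2l1 with 1901 cells of MGJ and 1 with Csf3r among its leading genes with 1552 cells of MGJ2, and had 1140 and 1442. Over the clusters as listed, Isg15 went from 5.46 through 6.46 and 33.9 to 105 CPM in MGJ and from 0.306 through 3.04 and 11.7 to 84.1 in MGJ2. Rsad2 went from 3.03 through 5.82 and 16.6 to 105, and from 0.613 through 0.761 and 13 to 86.4. Intervals of the first and second clusters overlapped for both genes in both libraries, whereas those of the last-named cluster lay above the other clusters listed for both genes in both libraries. From the Retnlg cluster to the largest cluster, Trim30a, Ifi204 and Gbp2 also rose in both libraries. Oas3 did not, at 41.5 then 35.0 CPM in MGJ and 58.7 then 59.0 in MGJ2. Ifi27l2a went from 293 to 294 in MGJ and from 385 to 742 in MGJ2. Oasl2 rose in MGJ2, but its intervals overlapped in MGJ. Each of these largest clusters also held a few cells of the other library, 80 cells of MGJ with Isg15 at 290 CPM and 59 cells of MGJ2 with no UMI of Isg15 and an interval reaching 33.7. Median depth differed too, from 11698 and 18994 UMIs per cell in the Camp cluster to 1788 and 2224 in the largest clusters, and its part in the result was not tested. As a class, immature neutrophil-like cells had 27 genes at least 2-fold below all other cells in MGJ (75.0%, with 62.3% of all genes) and 30 in MGJ2 (83.3%, with 53.9%).

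The largest unnamed cluster, 2300 cells of MGJ led by Ccl3, Ccl4 and Tnf with neutrophil as its nearest marker list and a median of 1796 UMIs, had a sum of 1346 CPM (interval 1312 to 1380). Gbp2 led it at 161 CPM, then Rsad2 at 148 and Ifi204 at 129.

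Macrophage-like cells of MGJ held Bst2 at 314, Ifi27l2a at 305, Ifi207 at 145, Ifi204 at 111 and Cxcl9 at 76.9 CPM. Dendritic-like cells held Ifi27l2a at 474 in MGJ and 590 in MGJ2 and Bst2 at 273 and 199. In MGJ2 Ifit1 was at 36.8 CPM in dendritic-like cells, but 96.7% of its 150 UMIs lay in 5 cells, only 8 of 383 cells held any, and without the 5 cells richest in the 36 genes it was at 3.98. Ifit2 was scarce throughout, with at most 9.14 CPM in endothelial-like cells of MGJ and 5.15 in dendritic-like cells of MGJ2, or 5.35 and 0.746 without the 5 richest cells. Usp18, the protease that removes Isg15 and damps the interferon receptor, reached 32.0 in erythroid-like cells of MGJ (9 UMIs) and 9.23 in endothelial-like cells of MGJ2 (4 UMIs). Ifi35 and Xaf1 reached 71.1 and 64.0 CPM in erythroid-like cells of MGJ and 36.9 and 43.9 in endothelial-like cells of MGJ2. In osteoclast-like cells, whose formation interferons are known to restrain, 20 genes were at least 2-fold below all other cells in MGJ (55.6%, with 38.9% of all genes) and 30 in MGJ2 (83.3%, with 38.7%), and Bst2 was highest in MGJ at 155 and second to Ifi27l2a in MGJ2 at 144 CPM. Rsad2 in osteoclast-like cells of MGJ was at 0.853 CPM on 2 UMIs.

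Chondrocyte-like cells stood at the low end. Their sum was 0.162 times that of all other cells in MGJ (interval 0.159 to 0.166) and 0.117 times in MGJ2 (interval 0.108 to 0.127), or 0.220 times in MGJ2 without the 3 genes with the most UMIs. In each library 32 of the 36 genes were at least 2-fold lower (88.9%, with 26.8% of all genes in MGJ and 33.2% in MGJ2). Genes at least 2-fold higher were Ifit2 and Ifit3 in MGJ (5.56%, with 14.2% of all genes) and Ifit3 in MGJ2 (2.78%, with 22.3%). Chondrocyte-like cells are deep, with a median of 21395 UMIs in MGJ and 29186 in MGJ2, so that even the low levels rest on many UMIs, 8662 and 585 in all. The lowest ratios in MGJ were those of Iigp1 at 0.00568, Ifi27l2a at 0.00918 and Oas3 at 0.00948.

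Ifit3, a partner of Ifit1 in binding foreign RNA, stood at 18.1 CPM in MGJ (interval 16.9 to 19.3) and 11.6 in MGJ2 (interval 8.46 to 15.5), or 3.15 and 3.66 times the level elsewhere in the library. The highest Ifit3 level of MGJ was that of endothelial-like cells, at 20.8 CPM on 50 UMIs. Without the 5 richest cells of each class it was 12.9 there and 17.7 in chondrocyte-like cells. Chondrocyte-like cells held 928 of its 1353 UMIs in MGJ (68.6%) while they held 40.9% of all UMIs, and 45 of 216 in MGJ2 (20.8%, with 6.71% of all UMIs). Its neighbours did not share this level, with Ifit1 at 1.40 CPM in MGJ and no UMI in MGJ2, and the close copy Ifit3b at 1.58 and 0.773. Ifit2 stood at 3.58 and 3.35. The promoter windows of Ifit1 and Ifit3 shown above both held 2 response elements. Cxcl10 stood at 57.9 CPM in MGJ and 10.8 in MGJ2, where 28 of its 42 UMIs lay in the same cell, and Cxcl9 at 0.487 in MGJ with no UMI in MGJ2.

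Sub-clusters of the chondrocyte-like cells differed in which genes they carried. In MGJ Cxcl10 was highest in the sub-cluster led by the mitotic genes Ube2c, Top2a and Birc5, at 132 CPM (interval 120 to 145) and with a UMI in 41.0% of its 122 cells. It stood at 77.9 in the sub-cluster led by Penk and Tfpi2, at 65.3 in that led by Ppa1 and Elf3, at 58.3 in that led by Saa1 and Saa3, at 29.7 in that led by Espn and Cdsn and at 28.7 in that led by Smim5 and Id1. In hypertrophic-like cells, the cells that have stopped dividing and make collagen X (Col10a1), it stood at 10.8 (interval 8.88 to 13). A sub-cluster whose leading genes were those of neutrophils was set aside and is shown in the plot of sub-clusters.

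**Figure D4:**
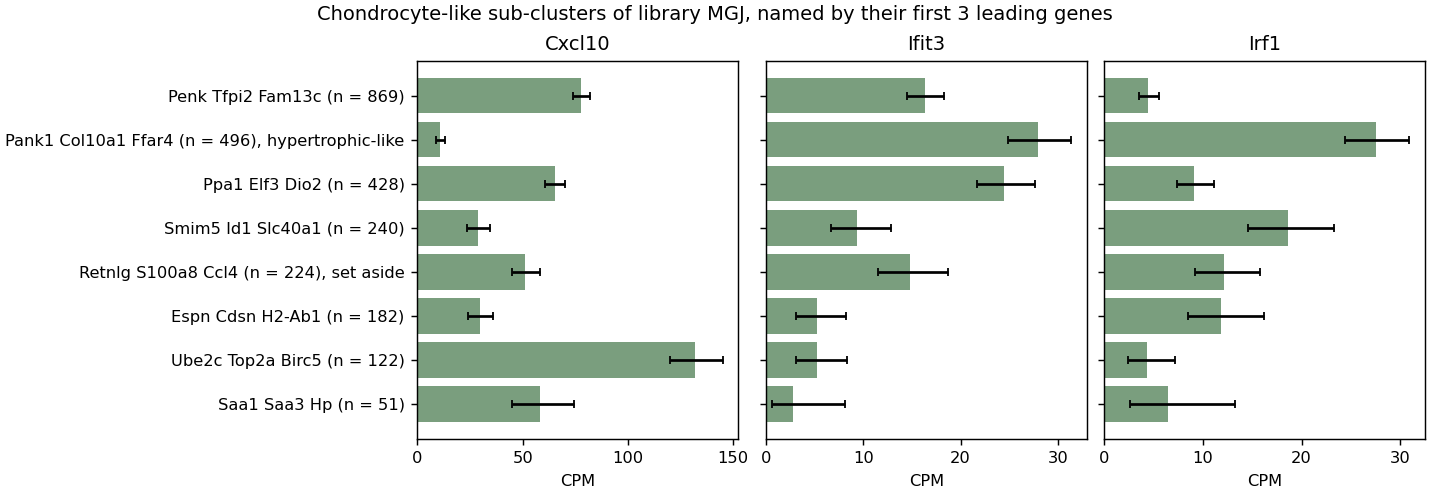
Levels of Cxcl10, Ifit3 and Irf1 in CPM in the sub-clusters of chondrocyte-like cells of MGJ, each named by its first 3 leading genes and its number of cells, with exact Poisson 95% intervals. Cxcl10 is lowest in the hypertrophic-like sub-cluster at 10.8, where Irf1 and Ifit3 are highest at 27.5 and 28.0.

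The study followed hypertrophic chondrocytes, so this sub-cluster was set against the remaining chondrocyte-like cells of its own library. The summed level was 164 in 496 hypertrophic-like and 170 in 1892 other chondrocyte-like cells of MGJ, a ratio of 0.967 whose interval of 0.917 to 1.02 held 1. It was 175 in 74 and 124 in 57 cells of MGJ2, a ratio of 1.42 (interval 1.2 to 1.68). The MGJ ratio was 1.62 when the 3 genes with the most UMIs were left out. Cxcl10 stood at 10.8 in hypertrophic-like and 69.7 in other chondrocyte-like cells of MGJ, a ratio of 0.155 (interval 0.127 to 0.187), and in MGJ2 all 42 of its UMIs lay in other chondrocyte-like cells. Irf1 ran the other way in MGJ at 27.5 against 7.74 (ratio 3.56, interval 3.02 to 4.19), and in MGJ2 the interval of its ratio of 1.27 held 1. Ifit3 had a ratio of 1.80 in MGJ (interval 1.56 to 2.07) and of 0.661 in MGJ2, with an interval of 0.346 to 1.24. Ifi204 was higher in hypertrophic-like cells in both libraries, at 12.4 against 8.44 CPM in MGJ and 50.1 against 12.5 in MGJ2. The median ratio was 1.26 over the 29 genes with at least 20 UMIs in these cells of MGJ, where that of all genes was 0.990, and 1.43 over 10 genes in MGJ2, where that of all genes was 1.02.

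Depth differs between classes, so cells were also thinned to 2000 UMIs each, leaving out shallower cells. At least 3 different genes of the set were then found in 54.7% of monocyte-like cells of MGJ (interval 51.2 to 58.2) and 55.1% of those of MGJ2 (interval 52.5 to 57.7). Without the 3 genes with the most UMIs these shares were 30.8% and 17.9%, and in cells thinned to 1000 UMIs 27.6% and 25.3%. The share was 56.9% in erythroid-like and 46.9% in endothelial-like cells of MGJ, 50.1% in plasmacytoid dendritic-like cells of MGJ2 and 35.7% in macrophage-like cells of MGJ. Neutrophil-like cells had 13.4% and 13.5%, with 54.2% and 30.4% of their cells too shallow to be thinned. Immature neutrophil-like cells had 1.54% and 1.28%. In chondrocyte-like cells it was 0.465% and 0.231%, against 23.7% and 42.7% before thinning.

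**Figure D5:**
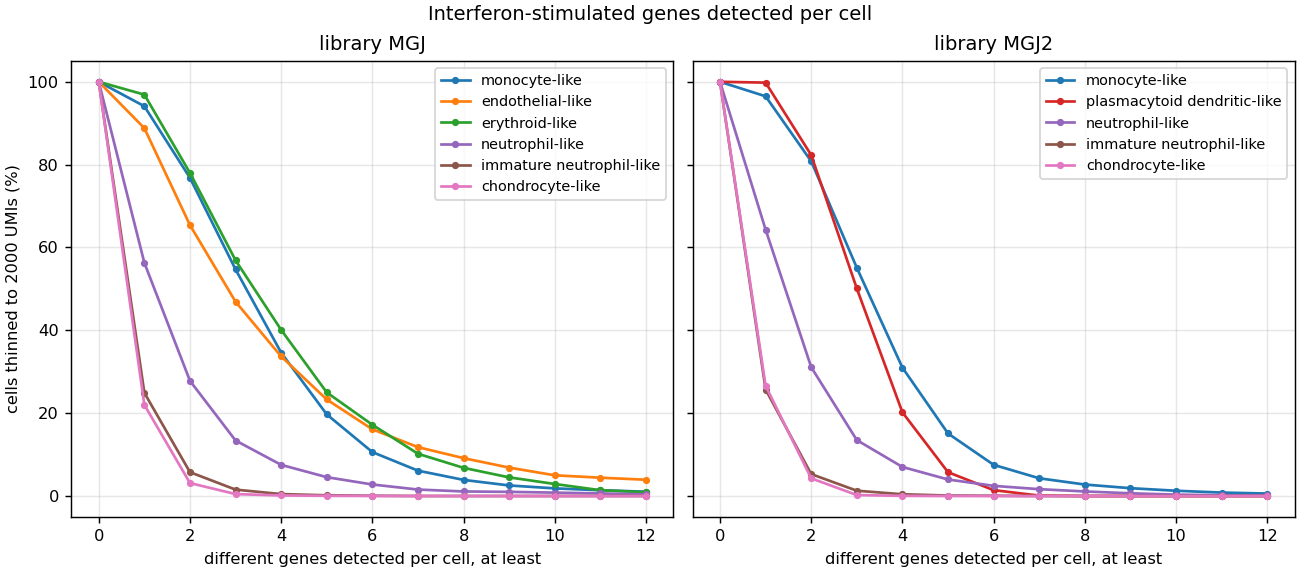
Share of cells, in percent, with at least the number of different interferon-stimulated genes on the x axis, in cells thinned to 2000 UMIs, by class and library. Monocyte-like cells cross 3 genes at 54.7% in MGJ and 55.1% in MGJ2, whereas chondrocyte-like and immature neutrophil-like cells lie below 2% there.

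How evenly the UMIs were spread over thinned cells also differed, as told by the variance of the summed UMIs per cell over their mean, which is 1 for counts scattered at random. It was 22.5 in endothelial-like cells of MGJ, 9.29 and 6.51 in neutrophil-like cells and 5.78 and 4.37 in monocyte-like cells, but 1.42 in plasmacytoid dendritic-like cells of MGJ2. In neutrophil-like cells some of the genes were found together: Isg15 was detected in 31.0% of thinned cells with a Rsad2 UMI and 9.37% of those without in MGJ, and in 22.4% and 9.64% in MGJ2. The intervals of each pair did not overlap. For Ifi27l2a the split was smaller, with Isg15 in 13.4% of cells that held it and 9.75% of those that did not in MGJ. In MGJ2 these shares were 12% and 9.40%, and the intervals overlapped in both libraries. For Bst2 they were 30.9% and 10.1% in MGJ, with intervals apart, and 17.9% and 10.2% in MGJ2, with intervals overlapping. Isg15 was also split by Rsad2 in monocyte-like cells, at 29% and 8.69% in MGJ and 11.2% and 2.56% in MGJ2. Those intervals were apart, as were those of endothelial-like cells of MGJ, whereas those of erythroid-like cells of MGJ overlapped. Ifit1 was detected in 16.3% of neutrophil-like cells with a Rsad2 UMI and 0.963% without in MGJ, and in 10.9% and 0.954% in MGJ2. Cells of a pair share a library, and the depth left after thinning is the same. Each class was pooled over its clusters, and the neutrophil-like clusters above differed in Isg15 and Rsad2 together. Whether the genes were found together within a cluster was not tested.

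The ligands of the pathway were near the limit of detection. The 18 type I interferon genes summed to 43 UMIs in MGJ and 26 in MGJ2, with 11 and 13 of them at 0 and none reaching 20 UMIs. Ifnb1 had 9 and 10 UMIs. Interferon gamma (Ifng) had 14 and 104 UMIs and stood in NK-like cells at 9.65 CPM in MGJ, on 2 UMIs, and at 23.5 CPM in MGJ2, the highest of its classes. The type III interferons Ifnl2 and Ifnl3 had 1 UMI in MGJ and none in MGJ2.

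The receptors were found widely. Ifngr1 was highest in NK-like cells, at 1577 CPM in MGJ and 2173 in MGJ2. Ifnar1 and Ifnar2 were highest in plasmacytoid dendritic-like cells of MGJ2, at 488 and 533, and in dendritic-like and monocyte-like cells of MGJ, at 151 and 209. Of the signal carriers, the kinase Jak1 was highest in NK-like cells at 521 and 700 CPM. Among the feedback inhibitors Socs3 was highest in monocyte-like cells, at 324 and 313, and Ptpn2, a phosphatase that removes phosphate from Jak1, was highest in chondrocyte-like cells, at 138 and 73.7 CPM.

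All 24 further interferon-induced genes of the pathway list had at least 20 UMIs in each library. Ifitm3, a membrane protein that blocks viral entry, was highest in monocyte-like cells at 2919 and 2400 CPM. Endothelial-like cells were highest in both libraries for Slfn5 at 206 and 422, Parp14 at 90.2 and 90.0, Eif2ak2 at 46.1 and 39.2, Gbp4 at 46.6 and 25.4 and Phf11d at 29.5 and 53.1 CPM. Rtp4 was highest in neutrophil-like cells at 139 and 82.9. These genes were not among the 38 and were not used to cluster the cells.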

How the data were processed

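The authors deposited filtered UMI counts per gene and cell, and the file headers name Cell Ranger 4.0.0 as their source. The submitters' processing notes name build GRCm38, and the kit counts 3′ ends. The counts were used as deposited, as whole molecules. Barcodes with at least 200 genes and at most 20% mitochondrial UMIs were kept, and doublet scores above 0.25 were removed (513 in MGJ, 238 in MGJ2), since the automatic threshold marked 0 in MGJ. It marked 223 in MGJ2. The removed doublets were 3.81% and 3.05% of the barcodes that passed the other filters, where the number of barcodes led to expected shares of 10.8% and 6.24%. Doublets may therefore remain, and their part in the results was not tested. In all, 1348 of 14295 barcodes of MGJ and 441 of 8009 of MGJ2 were left out. The libraries hold 135304426 and 61130834 UMIs.

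Cells were clustered together in scanpy 1.11.5 (2000 variable genes without the 36 genes and the pathway list, 30 components, 15 neighbours, resolution 1, leidenalg 0.10.2). This gave 32 clusters, of which 29 were named from 28 marker lists, at least 3 markers each. In 5 named clusters no own marker was among the 10 leading genes. The naming rules, and which chondrocyte-like sub-clusters were set aside, were settled after leading genes had been seen. Ratios compare a class with all other kept cells of its library, over genes of at least 20 UMIs, and a gene was counted from 2-fold. Levels have exact Poisson, ratios exact conditional binomial and shares Clopper-Pearson 95% intervals (scipy 1.17.1), for counting error only. Thinned values are means of repeated draws. All 36 measured genes are described, each at its highest class or beside its family. The members, gene lists and comparisons were chosen with earlier results of these data known. The level and ratio steps were tested on simulated data. Some items of the pathway list are not reported here.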

Additional observations from a re-analysis of the deposited data

Results flagged for a closer look

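Signal of the 36 genes was also found in barcodes left out of all comparisons above, those with few genes, many mitochondrial UMIs or a high doublet score. In MGJ they stood at 841 CPM over 1348 barcodes (interval 823 to 859), where kept cells had 683. In MGJ2 they stood at 1512 CPM over 441 barcodes (interval 1470 to 1554), where kept cells had 1214. For a count of 0 a limit of 3 counts was set here, which is 0.308 and 0.901 CPM, and not the exact interval used for zeros elsewhere. With 1 sample of each library, samples could not be screened for outliers.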

How the results depend on the processing

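Both libraries lack a group, so no replicate check was possible, and depth limits the genes of few UMIs. No paired analysis was possible because no result comes from a test. Over 18 results and 14 alternatives, 211 values were recomputed: 126 were called the same, 85 moved and 0 turned a called direction round. Ratios and shares were called the same when they lay in the counting interval of the reported value. Counts of genes past 2-fold have no interval and were called the same within a fixed fold. The endothelial-like count, 29 in MGJ and 22 in MGJ2, ranged from 27 to 30 and from 16 to 29. The monocyte-like count, 25 and 12, ranged from 18 to 28 and from 10 to 16. The chondrocyte-like count of lower genes, 32 in each, ranged from 30 to 33 and from 29 to 33. Combinations of a result and an alternative that does not bear on it, or that left no class to measure, gave no value. The alternative without the 5 cells richest in the genes was chosen after seeing the data. For the values that moved the cause was not tested, and all ratios are of summed levels.

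The monocyte-like ratio of MGJ, 4.62 in the report, was 3.72 with at least 500 genes per cell, 3.64 with at most 10% mitochondrial UMIs, 3.50 with doublet calls kept, 5.03 at resolution 0.5, 4.74 at resolution 2, 3.70 with interferon genes kept for clustering, 4.73 with each library clustered on its own, 4.31 with each cell named by its own score, 2.86 with every cell weighted equally, 3.61 without the 3 genes with the most UMIs, 4.90 against named cells alone and 4.42 without the 5 richest cells. The endothelial-like ratio of MGJ, 4.26 in the report, was 4.37 with at most 10% mitochondrial UMIs, 3.94 with doublet calls kept, 2.62 with every cell weighted equally, 5.07 without the 3 genes with the most UMIs, 4.44 against named cells alone and 3.33 without the 5 richest cells. The neutrophil-like ratio of MGJ, 1.57 in the report, was 1.88 with at least 500 genes per cell, 1.46 with at most 10% mitochondrial UMIs, 1.80 at resolution 0.5, 1.67 at resolution 2, 2.59 with interferon genes kept for clustering, 1.82 with each library clustered on its own, 1.71 with each cell named by its own score, 1.06 with every cell weighted equally, 1.82 without the 3 genes with the most UMIs, 1.63 against named cells alone and 1.47 without the 5 richest cells. The chondrocyte-like ratio of MGJ, 0.162 in the report, was 0.186 with at least 500 genes per cell, 0.180 with doublet calls kept, 0.156 with interferon genes kept for clustering, 0.177 with each cell named by its own score, 0.121 with every cell weighted equally, 0.151 without the 3 genes with the most UMIs, 0.157 against named cells alone and 0.156 without the 5 richest cells. The hypertrophic-like ratio of MGJ, 0.967 in the report, was 0.815 with at least 500 genes per cell, 0.897 with doublet calls kept, 1.04 at resolution 0.5, 0.875 at resolution 2, 0.833 with each cell named by its own score, 1.09 with every cell weighted equally and 1.62 without the 3 genes with the most UMIs. The share of thinned monocyte-like cells of MGJ with at least 3 genes, 54.7% in the report, was 43.1% with at least 500 genes per cell, 43.3% with at most 10% mitochondrial UMIs, 43.2% with doublet calls kept, 61.5% at resolution 0.5, 59.3% at resolution 2, 43.6% with interferon genes kept for clustering, 59.3% with each library clustered on its own, 30.8% without the 3 genes with the most UMIs and 27.6% thinned to 1000 UMIs. The monocyte-like ratio of MGJ2, 3.52 in the report, was 3.42 with at least 500 genes per cell, 3.46 with at most 10% mitochondrial UMIs, 3.24 with doublet calls kept, 3.46 at resolution 0.5, 3.57 at resolution 2, 3.69 with interferon genes kept for clustering, 3.43 with each library clustered on its own, 3.11 with each cell named by its own score, 2.79 with every cell weighted equally, 2.38 without the 3 genes with the most UMIs and 3.42 without the 5 richest cells. The endothelial-like ratio of MGJ2, 1.96 in the report, was 2.30 with each library clustered on its own, 1.71 with each cell named by its own score, 1.55 with every cell weighted equally, 3.22 without the 3 genes with the most UMIs and 1.25 without the 5 richest cells. The neutrophil-like ratio of MGJ2, 0.998 in the report, was 0.925 with at least 500 genes per cell, 1.15 with doublet calls kept, 1.19 at resolution 0.5, 0.948 with each library clustered on its own, 0.925 with each cell named by its own score and 0.964 without the 5 richest cells. The chondrocyte-like ratio of MGJ2, 0.117 in the report, was 0.104 with doublet calls kept, 0.144 with each library clustered on its own, 0.101 with each cell named by its own score, 0.134 with every cell weighted equally, 0.220 without the 3 genes with the most UMIs and 0.102 without the 5 richest cells. The hypertrophic-like ratio of MGJ2, 1.42 in the report, was 2.02 with each library clustered on its own and 1.75 without the 5 richest cells. The share of thinned monocyte-like cells of MGJ2 with at least 3 genes, 55.1% in the report, was 17.9% without the 3 genes with the most UMIs and 25.3% thinned to 1000 UMIs.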
